A study of Mus musculus with 10 samples.

Results

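The 9 genes described here encode transcription factors that set the fate of helper and effector T lymphocytes: Gata3, Tbx21, Bcl6, Foxp3, Maf, Nfil3, Prdm1, Eomes and Runx3. They were chosen by name from the 19025 genes measured, and each had exactly 1 row in the deposited files. RNA-seq libraries were made from mouse cells of the C57BL/6 strain in 5 groups of 2 libraries each. The first group was the embryonic stem (ES) cell line B6N-22, grown with LIF on a feeder layer of mouse embryonic fibroblasts. The next groups were splenic B220 B cells and splenic CD4 T cells, taken from mice 6 to 8 weeks of age and sorted on magnetic beads to a stated purity above 98%. The fourth group was Th2 cells, made from splenic CD4 T cells over 5 days of culture with IL-2 at 15 ng/ml and IL-4 at 10 ng/ml. The fifth group received the same culture, with 10 nM trichostatin A (TSA), an inhibitor of histone deacetylases, added on day 2 and kept for the last 3 days. The Th2 cells therefore differ from the CD4 T cells in stimulation, time in culture and cytokines at the same time, and no cells stimulated without IL-4 were analysed here.

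A naive CD4 T cell becomes one of several helper types according to the cytokines it meets, and each type is held by a lineage-defining transcription factor. Gata3 opens the Th2 cytokine genes downstream of IL-4 and STAT6, whereas T-bet, encoded by Tbx21, directs Th1 cells and restrains Gata3. Bcl6 directs follicular helper cells and is opposed by Blimp-1, encoded by Prdm1, and Foxp3 maintains regulatory T cells. Many of these genes are classic targets of Polycomb and Trithorax complexes, the pair of opposing chromatin systems that the series as a whole addresses.

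Levels are given as FPKM, the number of fragments per length of transcript and per total of mapped fragments, which allows genes to be compared per length. The 2 libraries of the ES, B and CD4 T cell groups were close to identical. The standard deviation of the log2 ratio between them, over genes at 10 FPKM or more, was 0.041, 0.044 and 0.046, against 0.308 for the Th2 and 0.322 for the TSA-treated Th2 libraries. Depth is unknown, so the spread that sampling noise alone would give was not computed, but the first 3 values were far below those of the Th2 pairs. The ES, B and CD4 T cell pairs were therefore each entered as the mean of both libraries, with n = 1, which left 7 samples. Whether replicates were independent animals or cultures is not labelled. The p-values below speak only for the spread within the Th2 and TSA-treated pairs, whose source may be technical. CD4 T cells, with n = 1, added no spread of their own and were taken to vary like these cultures. Files of the Th2 groups also gave a single value for each of the 1449 symbols with several rows, whereas the other files did so for 67 of them. This difference in file making and the difference between Th2 and CD4 T cells cannot be told apart.

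The defining markers of each labelled cell type were present, with those of other cell types beside them. The 6 ES cell markers summed to 2513 to 2514 FPKM in ES cells. The 8 T cell markers summed to between 2315 and 2319 FPKM in CD4 T cells, 1863 to 1987 in Th2 cells and 1597 to 1769 after TSA. All 8 B cell markers were also present at 1 FPKM or more in CD4 T cells (276 to 280 FPKM in sum, against 4925 to 4928 in B cells), and 8 myeloid markers summed to 398 to 400 FPKM there, against 5.81 to 6.77 in Th2 cells. In the B cell libraries all 8 natural killer (NK) cell markers reached 1 FPKM. In the ES libraries all 6 fibroblast markers did so, with a sum of 773 to 781 FPKM. Because the samples are bulk RNA, fewer cells of a type and less RNA per cell cannot be told apart for any gene below.

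The promoters of the opposed factors are shown because Gata3 and Tbx21, and Bcl6 and Prdm1, form the pairs whose balance shifted between groups. Each sequence is the 250 bases upstream of a RefSeq start site (build GRCm38.p6, the same coordinates as mm10), printed 5′ to 3′ on the gene's own strand, with CG dinucleotides in capitals. All 4 lie on the minus strand. The Gata3 window covers chr2:9878601-9878850 and overlaps an exon of the antisense transcript Gm13256. The Tbx21 window covers chr11:97115332-97115581, the Bcl6 window chr16:23988853-23989102 and the Prdm1 window chr10:44458749-44458998. RefSeq's Gata3, Bcl6 and Prdm1 genes also extend upstream of the starts used here.
Gata3: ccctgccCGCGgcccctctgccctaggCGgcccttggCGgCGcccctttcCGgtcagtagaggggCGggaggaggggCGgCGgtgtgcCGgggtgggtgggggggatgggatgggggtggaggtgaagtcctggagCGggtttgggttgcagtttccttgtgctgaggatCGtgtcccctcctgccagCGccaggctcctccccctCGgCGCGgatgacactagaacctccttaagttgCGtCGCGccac
Tbx21: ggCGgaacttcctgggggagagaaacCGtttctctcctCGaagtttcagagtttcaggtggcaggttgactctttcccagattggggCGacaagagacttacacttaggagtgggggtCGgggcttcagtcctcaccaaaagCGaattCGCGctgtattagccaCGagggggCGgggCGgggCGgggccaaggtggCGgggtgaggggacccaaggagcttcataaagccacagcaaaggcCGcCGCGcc
Bcl6: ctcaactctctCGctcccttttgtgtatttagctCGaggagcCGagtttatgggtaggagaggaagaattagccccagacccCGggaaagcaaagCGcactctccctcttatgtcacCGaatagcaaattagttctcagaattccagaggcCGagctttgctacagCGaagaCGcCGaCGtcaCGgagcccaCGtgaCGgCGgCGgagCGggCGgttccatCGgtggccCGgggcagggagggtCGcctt
Prdm1: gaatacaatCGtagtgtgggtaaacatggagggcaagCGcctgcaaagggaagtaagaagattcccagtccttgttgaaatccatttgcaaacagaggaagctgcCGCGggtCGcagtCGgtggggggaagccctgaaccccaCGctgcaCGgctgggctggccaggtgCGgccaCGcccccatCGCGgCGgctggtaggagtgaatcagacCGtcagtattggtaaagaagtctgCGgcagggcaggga
The 4 windows held 19, 16, 21 and 15 CG dinucleotides in the order printed, against a median of 6 over the 32851 promoters in the table. In the same order, 80.3%, 74.6%, 83.7% and 72.7% of those promoters held fewer. RefSeq promoters matched 8 of the 9 genes, with none for Maf. The spacing of a STAT6 site (TTC and GAA separated by 4 bases, which reads the same on both strands) was found in none of the members' upstream windows and in 5.85% of all promoters. The GATA motif AGATAA, searched on both strands, was found only upstream of the second Foxp3 start among the members and in 9.99% of all promoters. A match of letters does not show binding, and the lack of one in this window says nothing of the factor.

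**Figure D1:**
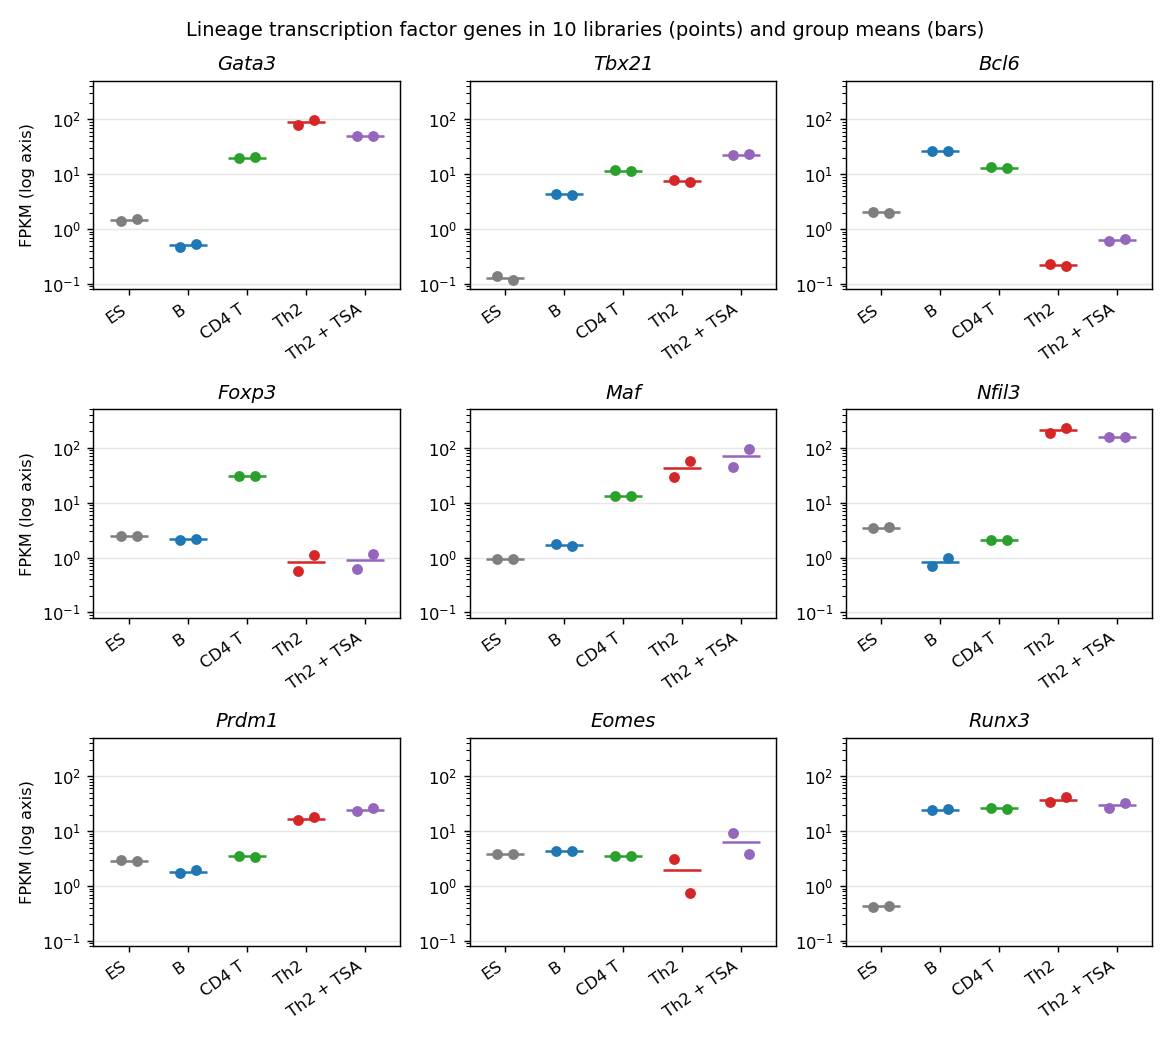
FPKM (log axis) of each of the 9 transcription factors in each of the 10 libraries (points) by cell group, with group means as bars. Gata3, Maf, Nfil3 and Prdm1 stood highest in the Th2 groups, Foxp3 in CD4 T cells and Bcl6 in B cells.

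Gata3 (chr2:9857078-9887953, minus strand) was highest in Th2 cells. Its level was 80.32 and 98.14 FPKM in the Th2 libraries, 49.01 and 49.24 after TSA, 19.89 and 20.31 in CD4 T cells, 0.48 and 0.54 in B cells, with 1.43 and 1.53 in ES cells. The order of group means from Th2 to TSA-treated Th2 to CD4 T to ES to B cells spanned 175-fold. Gata3 rose by 2.09 ± 0.16 (SE) on the log2(FPKM + 1) scale from CD4 T to Th2 cells (limma adjusted p = 0.00487), where n was 1 averaged sample against 2.

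Tbx21 (chr11:97098007-97115331, minus strand), the Th1 factor T-bet, was highest not in the untreated but in the TSA-treated cells. It stood at 22.35 and 23.36 FPKM after TSA, 11.75 and 11.61 in CD4 T cells, 7.80 and 7.07 in Th2 cells, 4.45 and 4.19 in B cells, with 0.14 and 0.12 in ES cells. The order of its group means ran from TSA-treated Th2 to CD4 T to Th2 to B to ES cells. Tbx21 fell by 0.59 on the log2 scale (SE 0.12) from CD4 T to Th2 cells, with a limma adjusted p of 0.0317. That call was lost without Th2 replicate 1 (adjusted p = 0.103) or replicate 2 (0.136), and under quantile normalization (log2 difference -0.10, adjusted p = 0.616), median-ratio scaling (-0.26, 0.161) and a fit of the compared groups alone (0.0823). The 4.32 FPKM mean in B cells stood beside NK cell markers in the same libraries, among them Ncr1 at 14.7 FPKM. In CD4 T cells the 8 NK markers summed to 154 to 160.5 FPKM, of which Tyrobp alone made up a mean of 138. From CD4 T to Th2 cells 5 of 6 NK markers tested fell, as did both CD8 markers. The part of such cells in the Tbx21 values was not tested.

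The ratio of Gata3 to Tbx21 within each library sets this pair on one scale. It was 1.69 and 1.75 in CD4 T cells, 10.3 and 13.9 in Th2 cells, and 2.19 and 2.11 after TSA. B cells stood at the other end, with 0.108 and 0.129. ES cells had 10.2 and 12.8, on levels below 2 FPKM for both genes. The treated cells thus lay nearer to the CD4 T cells than to the untreated Th2 cells in this ratio, although both genes were higher in them than in CD4 T cells. No test was made of the ratio. A permutation of 2 libraries against 2 cannot go below an exact two-sided p of 0.333, and this holds for single genes too. The limma p-values of single genes rest instead on a modelled spread shared by all 5 groups.

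**Figure D2:**
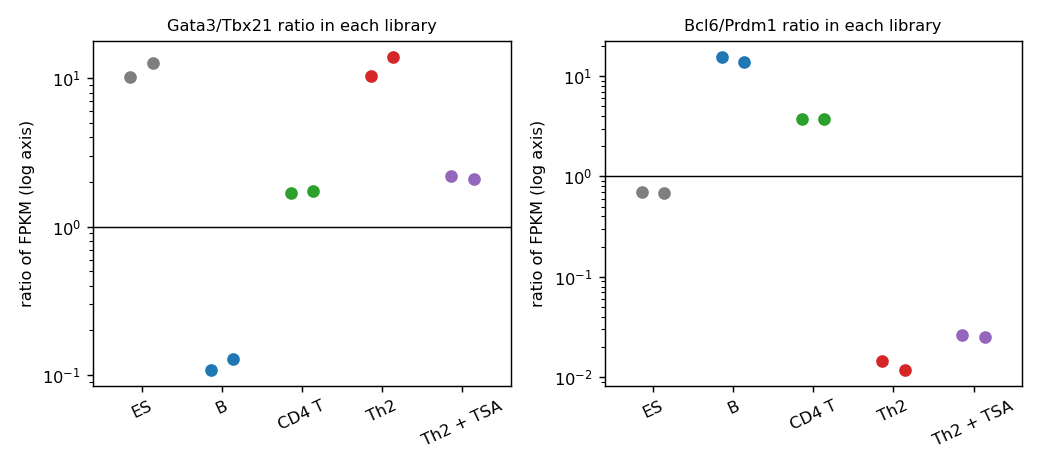
Ratios of Gata3 to Tbx21 (left) and of Bcl6 to Prdm1 (right), as FPKM over FPKM on a log axis, in each library, with a line at 1. The Gata3 to Tbx21 ratio was 10.3 and 13.9 in Th2 cells and 2.19 and 2.11 after TSA, and the Bcl6 to Prdm1 ratio was lowest in Th2 cells.

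Maf (chr8:115703253-115706894, minus strand) encodes c-Maf, an activator of Il4, and Nfil3 (chr13:52967209-52982878, minus strand) encodes a basic leucine zipper factor induced by IL-4 in lymphocytes. Nfil3 was scarce in CD4 T cells and abundant in both Th2 groups. It measured 2.12 and 2.07 FPKM in CD4 T cells, 187.54 and 231.51 in Th2 cells and 160.53 and 154.80 after TSA. ES cells had 3.44 and 3.61 FPKM, and B cells 0.69 and 0.97. The rise from CD4 T to Th2 cells was 6.08 ± 0.16 (SE) on the log2 scale (limma adjusted p = 0.00102), the 10th largest rise among 12367 genes tested.

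Maf was also higher in both cultured groups than in any other library, but its Th2 libraries were far apart. It measured 29.05 and 56.49 FPKM in Th2 cells, 43.99 and 95.78 after TSA, 13.47 and 13.28 in CD4 T cells, 1.77 and 1.64 in B cells, with 0.93 and 0.95 in ES cells. The second library exceeded the first 1.94-fold in the untreated pair and 2.18-fold in the treated pair. The log2 difference from CD4 T to Th2 cells was 1.53 with an SE of 0.71 and did not pass the test (limma adjusted p = 0.161).

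Bcl6 (chr16:23965050-23988866, minus strand), the repressor that directs follicular helper and germinal center B cells, was highest in B cells and lowest in Th2 cells. Its level was 26.71 and 26.98 FPKM in B cells, 13.33 and 12.77 in CD4 T cells, in ES cells 2.06 and 1.98, 0.61 and 0.66 in TSA-treated cells and 0.23 and 0.21 in Th2 cells. Bcl6 fell by 3.53 on the log2 scale (SE 0.07) from CD4 T to Th2 cells, with a limma adjusted p of 0.000624. B cell markers fell over the same comparison, 8 of 8. In CD4 T cells each of those markers stood at 4.71% to 5.99% of its B cell level. Bcl6 stood at 48.6% of its own, and the part of B cells in that value was not tested.

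Prdm1 (chr10:44437174-44528558, minus strand), whose product Blimp-1 ends cytokine-driven expansion and represses Bcl6, moved the other way. It measured 3.54 and 3.42 FPKM in CD4 T cells, 15.94 and 17.81 in Th2 cells, 23.31 and 26.30 after TSA, 2.93 and 2.88 in ES cells and 1.73 and 1.94 in B cells. The rise from CD4 T to Th2 cells was 1.99 ± 0.15 (SE) on the log2 scale (limma adjusted p = 0.00469). The Bcl6 to Prdm1 ratio was 15.4 and 13.9 in B cells, 3.77 and 3.73 in CD4 T cells, 0.0144 and 0.0118 in Th2 cells and 0.0262 and 0.0251 after TSA. ES cells stood at 0.703 and 0.688 in this ratio.

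Foxp3 (chrX:7579676-7595243, plus strand), the regulatory T cell factor, was high only in freshly sorted CD4 T cells among the groups measured. Its level there was 30.50 and 30.91 FPKM, against 2.49 and 2.47 in ES cells, 2.12 and 2.19 in B cells, 0.56 and 1.12 in Th2 cells and 0.62 and 1.16 after TSA. The ranges of the Th2 and TSA-treated libraries overlapped. Foxp3 fell by 4.12 on the log2 scale (SE 0.30) from CD4 T to Th2 cells (limma adjusted p = 0.00465). Exons of Ccdc22 and Ppp1r3f overlap those of Foxp3 on the opposite strand, and whether counting used strand is not given in the sources used here. Ccdc22 stood at 27.3 FPKM in CD4 T and 10.1 ± 1.38 (SD, n = 2) in Th2 cells, and Ppp1r3f at 10.8 and 1.97 ± 0.23, so both were also lower in Th2 cells. Their part in the Foxp3 value was not tested. Other exon overlaps were with genes not analysed here (Gata3, Bcl6, Maf and Eomes each have at least 1), and Tbx21, Nfil3, Prdm1 and Runx3 have none.

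Eomes (chr9:118478186-118486132, plus strand), the T-box relative of Tbx21 known from cytotoxic and NK cells, and Runx3 (chr4:135120645-135177990, plus strand), which silences Cd4 in the CD8 lineage and cooperates with T-bet, completed the set. Eomes was low throughout: 3.17 and 0.75 FPKM in Th2 cells, 9.14 and 3.80 after TSA, 3.48 and 3.59 in CD4 T cells, 4.44 and 4.27 in B cells, with 3.79 and 3.78 in ES cells. The first Th2 library held 4.23 times as much as the second, and the levels of B, ES and CD4 T cells fell within or next to the range of the treated cells. The log2 difference from CD4 T to Th2 cells was -0.75 with an SE of 0.81 (limma adjusted p = 0.486).

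Runx3 lay between 24.2 and 41.6 FPKM in all lymphoid libraries and below 1 FPKM in ES cells. It measured 33.72 and 41.63 FPKM in Th2 cells, 26.62 and 32.55 after TSA, 25.95 and 25.85 in CD4 T cells, 24.18 and 25.16 in B cells, with 0.42 and 0.43 in ES cells. The difference of 0.52 ± 0.21 (SE) on the log2 scale from CD4 T to Th2 cells did not pass the test (limma adjusted p = 0.130), though it did under quantile normalization (0.72, adjusted p = 0.0397). The CD8 markers Cd8a and Cd8b1 together gave 27.6 to 28.5 FPKM in CD4 T cells, 7.41 to 7.76 in Th2 cells and 9.87 to 14.7 after TSA. The 8 NK markers summed to 154 to 160.5 FPKM in CD4 T cells, of which Tyrobp alone made up a mean of 138. Their sum was 339 to 985 FPKM in Th2 cells and 716 to 1047 after TSA. Gzma alone made up a mean of 662 and 879 of these 2 sums. Ncr1 and Klra4 were at 0 in both Th2 groups, and 2 of the 8 rose after TSA. The part of such cells in the Eomes and Runx3 values was not tested.

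The comparison of ES, B and CD4 T cells asked which of these factors differed among the uncultured splenic cells and the ES cells. With 1 averaged sample a group there is no replicate test, so a gene was counted only if it differed by at least 2 on the log2(FPKM + 1) scale and reached 5 FPKM in the higher group. Between CD4 T and B cells 3 of the 9 genes were higher in CD4 T cells, against 2.56% of all genes: Gata3 (39.4-fold), Foxp3 (14.2-fold) and Maf (7.84-fold). No member was past the rule in favour of B cells, where 1.7% of all genes were. Bcl6 at 13.1 against 26.8 FPKM, Tbx21 at 11.7 against 4.32 and Runx3 at 25.9 against 24.7 did not meet it. Myeloid markers summed to 398 to 400 FPKM in CD4 T cells and 112 in B cells, and NK markers to 154 to 160.5 and 213 to 214. Tyrobp alone made up a mean of 138 FPKM of the NK sum in CD4 T cells and 86.7 in B cells. The part of such cells in the CD4 T and B cell values here and in the comparisons with ES cells was not tested.

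Against ES cells, 6 members were higher in CD4 T cells, where 10.8% of all genes were: Tbx21 (89.8-fold), Runx3 (60.9-fold), Maf (14.2-fold), Gata3 (13.6-fold), Foxp3 (12.4-fold) and Bcl6 (6.46-fold). None was past the rule in the other direction, which 11.9% of all genes took. In B cells 2 members were higher than in ES cells, Bcl6 (13.3-fold) and Runx3 (58.0-fold), beside 9.45% of all genes, and none was lower, beside 13.4%. The median log2 difference of the 9 genes was 2.89 for CD4 T against ES cells, where that of all genes was -0.16. Nfil3, Prdm1 and Eomes stayed short of the rule in all of these comparisons, between 0.83 and 4.36 FPKM. The ES values of Eomes, Nfil3, Prdm1, Foxp3 and Bcl6, between 2.02 and 3.79 FPKM, stood beside the fibroblast markers of the feeder layer, whose part in them was not tested.

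From CD4 T to Th2 cells, 3 of the 9 genes rose (Gata3, Nfil3 and Prdm1), 3 fell (Tbx21, Bcl6 and Foxp3) and 3 did not pass the test (Maf, Eomes and Runx3). Values were fitted as log2(FPKM + 1) with limma over all 12367 genes tested, a call being a Benjamini-Hochberg adjusted p below 0.05. Of all genes, 16.9% rose and 38.1% fell, so the share of members that fell was close to the background. The median log2 difference was 0.52 for the members and -0.28 for all genes. The median of all genes moved to 0.02 under quantile normalization and to -0.04 under median-ratio scaling, where the split of 2086 higher and 4709 lower became 3458 and 3405, and 2835 and 3463. The direction of every member was the same under both scalings.

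**Figure D3:**
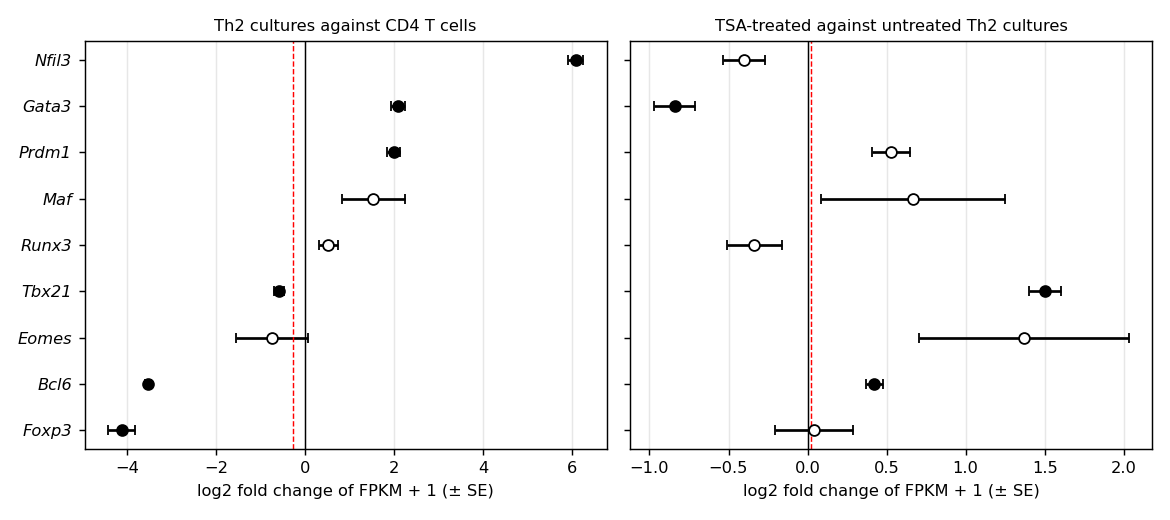
Log2 fold changes on the log2(FPKM + 1) scale with standard errors for the 9 genes, from CD4 T to Th2 cells (left) and from untreated to TSA-treated Th2 cells (right). Filled points passed the limma adjusted p of 0.05, and the dashed line is the median of all genes tested, so that Nfil3 stands farthest to the right and Foxp3 farthest to the left in culture.

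A list of other factors known from helper T cells was read beside the members. Of 38 other such factors, 20 fell and 7 rose, beside 38.1% and 16.9% of all genes, so the share that rose was close to the background. Their median log2 difference was -0.82, and -0.47 under median-ratio scaling. Tcf7, which encodes the naive and memory factor TCF-1, stood at 557 FPKM in CD4 T cells and 15.6 ± 1.31 (SD, n = 2) in Th2 cells, and fell by 5.07 on the log2 scale (limma adjusted p = 0.00161). Tox fell from 21.8 to 0.220 FPKM, and the quiescence factor Klf2 from 168 to 8.76 FPKM. Rbpj, the DNA-binding partner of Notch, rose from 5.60 to 82.8 FPKM, a log2 difference of 3.67. Without Th2 replicate 1 the counts were 10 lower and 4 higher, and without replicate 2 they were 11 and 3.

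Relatives of the 9 genes in the same protein families were read in the same way. Of 26 such relatives tested, 13 fell and 1 rose, beside the same 38.1% and 16.9% of all genes. Foxp1, a forkhead relative of Foxp3 that keeps T cells quiescent, fell from 44.0 to 4.27 FPKM, Runx2 from 11.5 to 0.510 and Tbx6 from 10.1 to 0.245. Myeloid markers fell over the same comparison, 7 of 7 tested, and their part in these values was not tested. Without Th2 replicate 1 the count of falls was 10, and without replicate 2 it was 9. The median of -0.46 was -0.26 under median-ratio scaling and -0.03 under quantile normalization, the latter with 12 lower and 4 higher.

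Genes controlled by or marking each helper type were listed beside their factor, and the counts below stand against 38.1% of all genes lower and 16.9% higher. Of 13 Th2 genes tested, 10 rose and 2 fell, with a median log2 difference of 3.86. The 2 that fell, named after their values were seen, were Il17rb (17.3 to 2.145 FPKM) and Il1rl1 (1.435 to 0.675 FPKM). Cyp11a1, a steroid-synthesis enzyme of Th2 cells, rose from 0.145 to 469.7 FPKM, Il24 from 0.035 to 256, Il10 from 1.19 to 137 and Ecm1 from 22.4 to 973. Of 13 Th1 genes, 6 fell and 2 rose, both shares close to the background. Il18r1 fell from 31.3 to 1.61 FPKM, Havcr2 from 11.0 to 0.900 and Ifng from 9.70 to 0.985, while Il12rb1, a subunit of the IL-12 receptor, rose from 10.2 to 74.8. Under median-ratio scaling the Th1 counts were 4 lower and 3 higher.

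Of 10 follicular helper genes, 7 fell with Bcl6 and 1 rose. Il6ra fell from 87.9 to 1.96 FPKM, Btla from 97.4 to 3.09, Cd200 from 16.6 to 1.13 and the follicle-homing receptor Cxcr5 from 15.7 to 0.305. B cells carry several of these transcripts too, and their markers fell alongside. The fall count was 3 without either Th2 library. Of 11 regulatory T cell genes, 4 fell and 4 rose. Nrp1 fell from 11.7 to 0.315 FPKM, whereas Il2ra rose from 20.0 to 682, Tnfrsf4 from 30.3 to 338 and Tnfrsf18 from 66.8 to 400.0. The last 3 encode receptors that any activated T cell can carry.

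Among 11 cytotoxic genes 7 fell and 3 rose. Over the same comparison 5 of 6 NK markers tested and both CD8 markers fell, the other NK marker being Gzma, and their part in these values was not tested. Gzmb rose from 2.52 to 1893 FPKM, Gzma from 3.36 to 662 and Gzmc from 0.800 to 10.1, while the NK receptor gene Klrd1 fell from 46.9 to 0.220. Without either Th2 library the fall count was 4. The Th17 list could hardly be read, since 3 of its 8 genes were tested. Of these 2 fell, including the chemokine receptor Ccr6, from 10.1 to 0.025 FPKM.

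The comparison with TSA asked how the same factors responded when histone deacetylases were inhibited in the last 3 days of culture. Tbx21 rose by 1.50 on the log2 scale (SE 0.10, limma adjusted p = 0.0282), Bcl6 rose by 0.42 (SE 0.05, adjusted p = 0.0395) and Gata3 fell by 0.84 (SE 0.13, adjusted p = 0.0485). In FPKM, Tbx21 went from 7.44 ± 0.52 to 22.9 ± 0.71, Bcl6 from 0.220 ± 0.014 to 0.635 ± 0.035 and Gata3 from 89.2 ± 12.6 to 49.1 ± 0.16 (SD, n = 2 each). Of the 9 members 2 rose and 1 fell, beside 9.26% and 4.14% of 12907 genes tested, and 6 did not pass. Leaving out any 1 of the 4 Th2 libraries ended all 3 calls, and most of the calls over all genes with them. Such a fit has 1 sample in 1 of the groups compared. The log2 difference then ranged from 1.44 to 1.56 for Tbx21, 0.40 to 0.44 for Bcl6 and -0.98 to -0.70 for Gata3. The median log2 difference of all genes was 0.02, and the split of 1195 higher and 534 lower became 1135 and 1041 under quantile normalization.

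Set side by side within each experiment number, the treated over untreated FPKM ratio was 2.87 and 3.30 for Tbx21, 2.65 and 3.14 for Bcl6 and 0.610 and 0.502 for Gata3. Every library of the treated group lay outside the untreated range for these genes. The same was true of Nfil3, Prdm1, Eomes and Runx3, which did not pass the test. How many of all genes did so was not counted. Such a separation of 2 libraries against 2 has an exact two-sided permutation p of 0.333. It is given as description and not as support for a change. Bcl6 stayed below 1 FPKM in all 4 libraries. It rose while B cell markers rose from a sum of 4.45 to 6.46 FPKM to a sum of 16.1 to 42.0, 2 of 8 of them by the test, and their part in the Bcl6 value was not tested. Under quantile normalization the Bcl6 difference was 0.08 (adjusted p = 0.597), and without a filter on low values its adjusted p was 0.0638. The Gata3 call was also lost without that filter (adjusted p = 0.0732) and with a pseudocount of 0.1 (0.052).

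**Figure D4:**
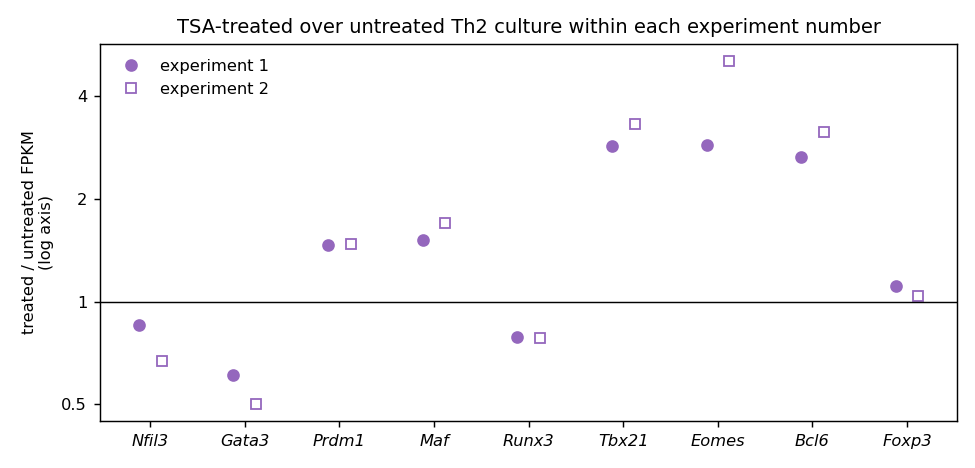
Ratio of TSA-treated to untreated FPKM (log axis) for each of the 9 genes, with filled circles for experiment 1 and open squares for experiment 2, and a line at 1. Tbx21, Eomes and Bcl6 had the highest ratios in both experiments, and Gata3 the lowest.

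For 6 members the test was not passed, and the size of change differed among them. Prdm1 was 1.46 and 1.48 times its untreated level (log2 difference 0.53, limma adjusted p = 0.0808), and Runx3 was 0.789 and 0.782 times (-0.34, 0.263). Nfil3 was 0.856 and 0.669 times its untreated level (-0.40, 0.143). Eomes had the widest ratios, 2.88 and 5.07 (1.37, 0.242), on levels that differed several-fold between experiments. Maf was 1.51 and 1.70 times (0.67, 0.474) and Foxp3 1.11 and 1.04 times (0.04, 0.953). In these last 2 genes the experiments differed more than the treatments. The sign of the Foxp3 difference turned under quantile normalization (-0.34). It also turned without Th2 replicate 1 (-0.18) or TSA-treated replicate 2 (-0.17).

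The lists were then read after TSA. Of the Th2 genes 6 of 13 fell and 7 did not pass, with a median log2 difference of -0.55 (-0.36 without TSA-treated replicate 1). The counts after TSA stand against 9.26% of all genes higher and 4.14% lower. Cyp11a1 fell from 469.7 ± 90.8 to 138 ± 29.9 FPKM (SD, n = 2 each), a fall by 1.76 on the log2 scale (limma adjusted p = 0.0433). The other 5 that fell, named after their values were seen, were Il5, Ccr4, Il4ra, Il17rb and Il1rl1. Il17rb (2.145 to 0.67 FPKM) and Il1rl1 (0.675 to 0.14 FPKM) were low, and both had also fallen from CD4 T to Th2 cells. The cytokine genes Il4 (85.7 to 66.8 FPKM, limma adjusted p = 0.216) and Il13 (27.3 to 17.0 FPKM, 0.420), named in the same way, were lower without passing. Il10 (137 to 401 FPKM, adjusted p = 0.0718) and Ecm1 (973 to 3529 FPKM, adjusted p = 0.146) were higher without passing, and Il24 (256 to 244 FPKM) was close to level. With any 1 of the 4 Th2 libraries left out, limma called 0 or 1 of these 13 genes (6 to 8 at an unadjusted p below 0.05).

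Th1 genes rose in 4 of 13 cases, with a median log2 difference of 1.04. Havcr2, which encodes TIM-3, rose from 0.900 to 9.13 FPKM, a log2 difference of 2.42 (limma adjusted p = 0.0297). Il18r1 rose from 1.61 to 4.11 FPKM (0.97, adjusted p = 0.048). Il12rb2 (15.3 to 72.4 FPKM), named after its values were seen, rose as well. Ifng, the defining Th1 cytokine, stood at 0.985 FPKM untreated and 2.93 treated and did not pass (adjusted p = 0.124). Of the follicular helper genes 4 of 10 rose, among them Btla (3.09 to 12.9 FPKM), Il6ra (1.96 to 7.45) and Cd200 (1.13 to 12.5); the fourth, Il21 (0.390 to 5.20), was named after its values were seen. Btla and Cd200 stood at 440.2 and 29.5 FPKM in B cells, and B cell markers rose from a sum of 4.45 to 6.46 FPKM to a sum of 16.1 to 42.0, 2 of 8 by the test. Their part in these rises was not tested. With any 1 of the 4 Th2 libraries left out, limma called 0 Th1 genes (5 to 8 at an unadjusted p below 0.05) and 0 follicular helper genes (4 to 8).

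Of the 38 other helper factors, 9 rose after TSA and 1 fell. The 4 that changed most from CD4 T to Th2 cells, Tcf7, Tox, Klf2 and Rbpj, did not pass here. Tcf7 stood at 15.6 ± 1.31 and 26.9 ± 4.28 FPKM (adjusted p = 0.0693) and Rbpj at 82.8 ± 0.80 and 66.2 ± 4.38 (0.0857). Among those that rose, and named after its values were seen, Irf4 went from 94.2 to 192 FPKM, and the 1 that fell was Cbfb, the partner of Runx proteins, from 69.6 to 34.9. Of 27 family relatives 3 rose and 1 fell, shares close to the background, the last being Runx1, from 10.9 to 7.02 FPKM. Of the regulatory T cell genes 2 of 11 rose, Nrp1 from 0.315 to 9.59 FPKM and, named after its values were seen, Gpr83. Of the cytotoxic genes 3 of 11 rose, with Klrd1 from 0.220 to 3.96 FPKM and, named in the same way, Klrk1 and Nkg7. Of the NK markers 2 of 8 rose as well, and their part in these rises was not tested. Gzma, Gzmb and Gzmc did not pass. With any 1 of the 4 Th2 libraries left out, limma called 0 to 2 of the 38 factors (13 to 17 at an unadjusted p below 0.05), 0 to 2 relatives (6 to 11), 0 regulatory T cell genes (2 to 4) and 0 or 1 cytotoxic genes (5 to 6).

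**Figure D5:**
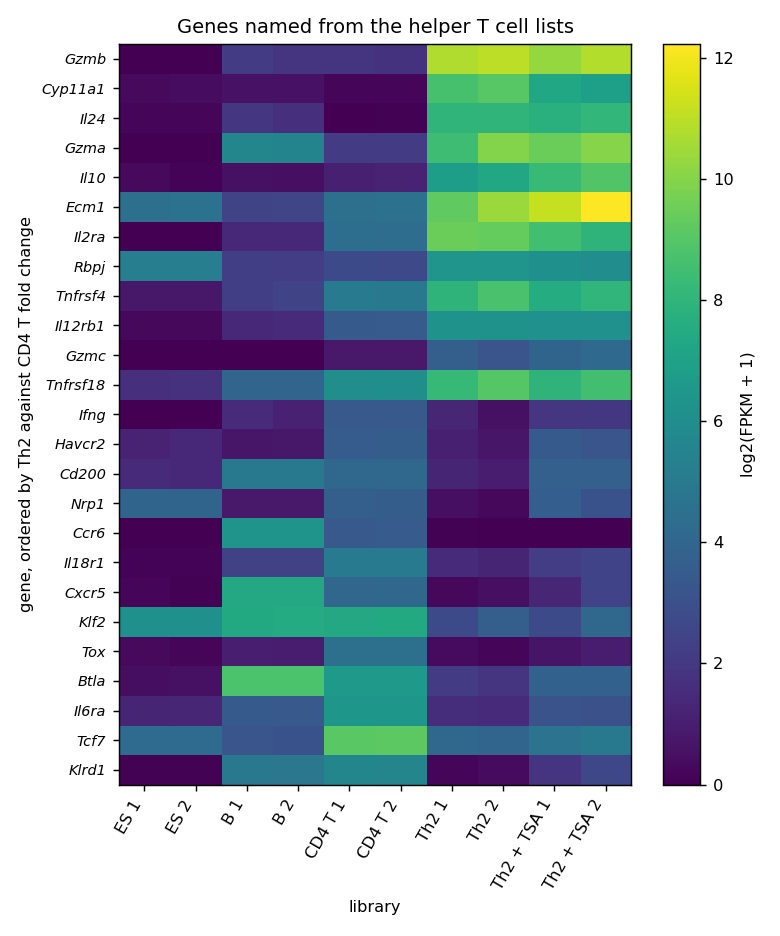
Heatmap of log2(FPKM + 1) in each of the 10 libraries for the genes named from the helper factor and signature lists, ordered by their log2 fold change from CD4 T to Th2 cells. Gzmb and Cyp11a1 at the top rose most in culture, and Klrd1 and Tcf7 at the bottom fell most.

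Treated Th2 cells were also set beside the CD4 T cells, which are not labelled as the cells that founded these cultures. This comparison shares its samples with the previous ones and adds no independent support. Here 4 members rose, Gata3 (1.25, limma adjusted p = 0.0115), Tbx21 (0.91, 0.0127), Nfil3 (5.68, 0.00122) and Prdm1 (2.52, 0.0034). Bcl6 (-3.10, 0.00079) and Foxp3 (-4.08, 0.00474) fell. The background was 20.2% of genes higher and 36.8% lower. Maf, at 2.20, had an adjusted p of 0.0783 (0.0206 under quantile normalization), and Eomes (0.62, 0.551) and Runx3 (0.18, 0.516) did not pass. The Gata3 and Tbx21 calls were lost without treated replicate 1 (adjusted p = 0.0619 and 0.0559) or replicate 2 (0.0646 and 0.0621). For Tbx21, then, the log2 difference from CD4 T cells was -0.59 without TSA and 0.91 with it. The difference without TSA was -0.10 under quantile normalization and -0.26 under median-ratio scaling, and passed the limma test in neither. With TSA it was 1.31 and 1.18 under the same scalings.

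Across the 7 samples, the gene whose pattern was most like each member's was found among 10172 genes by Pearson's r of log2(FPKM + 1). These values describe 7 points that fall in few groups, so many genes reach high values. For Gata3 the closest were Ikzf4 (0.995), Pdcd6ip and Pygb, and for Tbx21 they were Gbp7 (0.998), Hopx and Zbp1. Ikzf4, which encodes the Ikaros family factor Eos, stood at 5.71 FPKM in CD4 T, 12.7 in Th2 and 10.9 in treated cells. Bcl6 was closest to Aff3 (0.999), Dennd6b and Lpcat2, Foxp3 to Egfl8 (0.990), Scg5 and Ppp1r15a, and Maf to Socs1 (0.988), Cela1 and Sdf4. For Nfil3 the nearest were Ubb (0.998) and Hnrnpf. Prdm1 was nearest to Rps24 (0.998), Rps16 and Rpl19, which encode ribosomal proteins. Eomes had no gene as close, with Sec24a at 0.904, Reep3 and Gyk, and Runx3 was nearest to Tmem229b (0.996), Syngr2 and Cd48.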

How the data were processed

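The study measured 10 RNA-seq libraries of total RNA. The submitters' processing notes name TopHat 1.3.2, Bowtie 0.12.8, Cufflinks 2.0.2 and the build mm10, with no order of steps, and the authors deposited FPKM values per transcript accession and symbol (21035 rows a file). Depth is unknown, since FPKM files hold no counts, so no counting interval is given. The highest row of each symbol was kept. Libraries were grouped by their labels. The near-identical pairs of libraries (ES, B and CD4 T cells) were averaged, giving 7 samples. Genes at 1 FPKM or more in at least 2 libraries were fitted as log2(FPKM + 1) with limma 3.58.1 (trended variance) in R 4.3.3, all 5 groups sharing 1 spread estimate, with Benjamini-Hochberg adjustment over all genes tested. For comparisons across both kinds of file, genes at 0 throughout either kind were left out. The fit was tested on simulated data. A fold change on this scale understates the change of low genes. Members, gene lists and markers were chosen with earlier results of these data known. From each list, up to 4 genes were named: those with the largest calls from CD4 T to Th2 cells that reached 5 FPKM in either group. Some genes that these rules select are not reported here. Coordinates and promoters come from RefSeq, and exon overlaps from Gencode vM21. Alternatives were another pseudocount, no filter, summed rows, quantile and median-ratio scaling, 10 separate libraries, the compared groups alone, a replicate block and each library left out. Counts of the gene lists under these scalings and without each library were added after the data had been seen.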

Additional observations from a re-analysis of the deposited data

How the results depend on the processing

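Between TSA-treated and untreated Th2 cells, the 3 member calls became 1 without the filter on low values and 7 with 10 separate libraries, and the calls over all genes went from 1729 to 771 and 6774. The first alternative tests more genes, and the second treats near-identical pairs as replicates. Leaving out 1 library gave 0 to 0 member calls (3 to 4 at an unadjusted p below 0.05) and 0 to 273 calls over all genes (2677 to 4151 unadjusted) by limma. From CD4 T to Th2 cells, the 6795 calls over all genes ranged from 3188 to 6790 with 1 library left out. A lone library of a group is then assumed to vary like the others. The Foxp3 difference after TSA turned to -0.34 under quantile normalization, and ranged from -0.18 to 0.26 with 1 library left out (-0.17 without TSA-treated replicate 2, -0.18 without Th2 replicate 1); the cause was not tested. Experiment numbers are shared by the Th2 and treated libraries, but nothing states that a number marks a shared batch. The deviations of same-numbered libraries correlated at 0.663 over 5806 genes, with only 2 pairs. With the replicate block, member calls were 9 from CD4 T to Th2 cells, 2 after TSA and 8 from CD4 T to treated cells. Calls over all genes were 8047, 1896 and 8253. From CD4 T to Th2 cells the calls gained were Maf (limma adjusted p = 0.0107), Eomes (0.0296) and Runx3 (0.0183). After TSA the 2 calls were Tbx21 and Eomes (limma adjusted p = 0.0485 for each), while Gata3 (0.055) and Bcl6 (0.0545) did not pass. The fall in Bcl6, the fall in Foxp3 and the rises in Nfil3, Gata3 and Prdm1 from CD4 T to Th2 cells passed the test under every alternative run. Members below 1 FPKM, such as Bcl6 and Foxp3 in Th2 cells, are limited by an unknown depth.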
